A study of Mus musculus with 4 samples.

Results

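Of the 12885 peaks of the SCL ChIP-seq list, 270 had their summit in an exon more than 1 kb from any transcription start site (TSS), and these exonic peaks are described here. A summit was taken as exonic where it lay in any exon of a protein-coding, lincRNA or processed-transcript gene of GENCODE vM1, on the mm9 genome. The choice used position alone and no measured enrichment. Of the 270 peaks, 108 lay in coding sequence, 95 in 3′ UTRs, 6 in 5′ UTRs and 61 in exons that belong only to transcripts with no coding sequence annotated at that place, called other exons below. The other classes of the list held 1092 promoter peaks (within 1 kb of a TSS), 5250 intron peaks and 6273 intergenic peaks.

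SCL (gene symbol Tal1) was mapped by chromatin immunoprecipitation and sequencing (ChIP-seq) in mesoderm derived from wild-type mouse embryonic stem (ES) cells (a single line, J1) of C57Bl/6 X Sv129 background, to find where it is bound as mesoderm takes a blood fate. The cells formed embryoid bodies and were selected at day 3.5 for FLK1, a surface receptor made by mesoderm with blood, endothelial and cardiac potential. There were 2 libraries made with an in-house rabbit anti-serum to SCL and 2 input libraries of unprecipitated chromatin, from 2 independent differentiations. All 4 libraries came from the same kind of sorted cells, and no group without SCL was analysed here. The peak list is a single call on the merged libraries, so replicate error could not be given, and no p-value was computed. Fold is the number of ChIP fragments at the summit plus 1, divided by the local background of the merged input plus 1. It is therefore lower than the plain ratio, most of all where the local background is low. Intervals are 95% intervals that cover counting error only, and those of a fold cover the ChIP fragments alone, with the background taken as fixed. The libraries hold no expression values, so the FLK1+ label was not checked against marker genes.

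SCL is a basic helix-loop-helix factor that binds DNA with an E protein at E-boxes, and it forms a complex with LMO2, LDB1 and a GATA factor in blood and endothelial precursors. The complex is known for binding at a composite site, in which the CTG end of an E-box stands a short distance before a GATA site on one strand. In that complex SCL need not touch DNA itself, since GATA and LMO2 can tether it. Enhancers bound in this way are usually found in introns and between genes, and an exon that holds one carries a binding site within sequence annotated as transcript.

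The sequences at the exonic peaks are shown first, since the composite is the site at which the SCL complex is known to bind. Each line gives 30 bases of mm9 around the composite nearest to the summit, 5′ to 3′ on the strand that reads CTG before GATA, with CTG and GATA in capitals. The first set holds every peak among the 25 with the highest fold that had a composite, in order of fold.
Cntnap1, chr11:101051341-101051370, minus strand: ccccacatCTGtccctgctGATAgtgtaca
Gm10300, chr4:131632828-131632857, plus strand: ccggcgcCTGgccctgcctGATAagcctgt
Clec1a, chr6:129376018-129376047, plus strand: tcctgacCTGtttcctgctGATAagtcctg
Adipor1, chr1:136323054-136323083, minus strand: agcaccgtCTGgccaacaaGATAagccttg
Gm13032, chr4:140372620-140372649, plus strand: tgactggCTGgctgcttcGATAgcatcact
Ypel4, chr2:84575729-84575758, minus strand: gagtgcaCTGcaggcagagGATAaggaggg
Samd7, chr3:30664737-30664766, minus strand: gacgctgCTGtggctaggaGATAaggtgct
Ptger1, chr8:86194354-86194383, plus strand: ggagggaCTGggaactcaGATAaatctagg
Stab2, chr10:86453572-86453601, minus strand: tgatccgCTGacagcttgtGATAtatgtgg
3110062M04Rik, chr6:34824637-34824666, minus strand: gcggtctCTGgaggccactGATAagctgca
Tmem184a, chr5:140280326-140280355, minus strand: gagccctCTGggctgataaGATAggctcta
Gm16767, chr13:52071687-52071716, minus strand: tgcacagCTGgagtgtgctGATAagagtct
Clgn, chr8:85947092-85947121, plus strand: cagatggCTGggaactgaaGATAatggtgg
Traip, chr9:107874249-107874278, plus strand: aggctgtCTGgatggagatGATAgccttct

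Composites were found in 14 of the 25 peaks (56%), where 38.9% of all exonic peaks had one. CTG and GATA stood 9 bp apart in 10 of these and 8 bp apart in 4, and the composite read along the gene in 8 and against it in 6. The next set comes from peaks in genes of the fixed lists or in a gene with more than 1 exonic peak.
Mc1r, chr8:125933204-125933233, minus strand: cacacaggCTGtggtcagtGATAagccaac
Ephb2, chr4:136209024-136209053, plus strand: gagatgagCTGtctctggGATAccccttcc
Fzd5, chr1:64780259-64780288, plus strand: aggaggaCTGtttaacatGATAaaggaggt
Lamb1, chr12:31951812-31951841, plus strand: catcctgCTGtcaatccaGATAggaagtac

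The last set comes from strong peaks with no composite within 50 bp of the summit, where the capitals mark the GATA motif nearest to the summit (GATA preceded by A or T and followed by A or G). This set was added after the values had been seen.
Kdr, chr5:76358386-76358415, minus strand: gatgcgaggcagTGATAAacctagcccagg
Mphosph9, chr5:124717063-124717092, minus strand: ggacaggaagctAGATAAgcagctggagga

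Exonic peaks made up 2.1% of the list, while exon sequence away from promoters made up 2.41% of the genome's assembled bases, 61.6 Mb in all. Their density was 4.39 peaks per Mb (Poisson interval 3.88 to 4.94). Intron sequence held 5.74 peaks per Mb (5.58 to 5.89), intergenic sequence 4.19 (4.09 to 4.30) and promoters 12.7 (12.0 to 13.5). Exons held fewer peaks per Mb than introns, with intervals that did not overlap, and the exonic interval held the intergenic value. Coding sequence held 4.08 peaks per Mb (3.35 to 4.93) and 3′ UTRs 3.82 (3.09 to 4.66). Other exons held 6.35 (4.86 to 8.16), and the 6 peaks of 5′ UTRs gave 10.5 with a wide interval of 3.84 to 22.8.

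**Figure D1:**
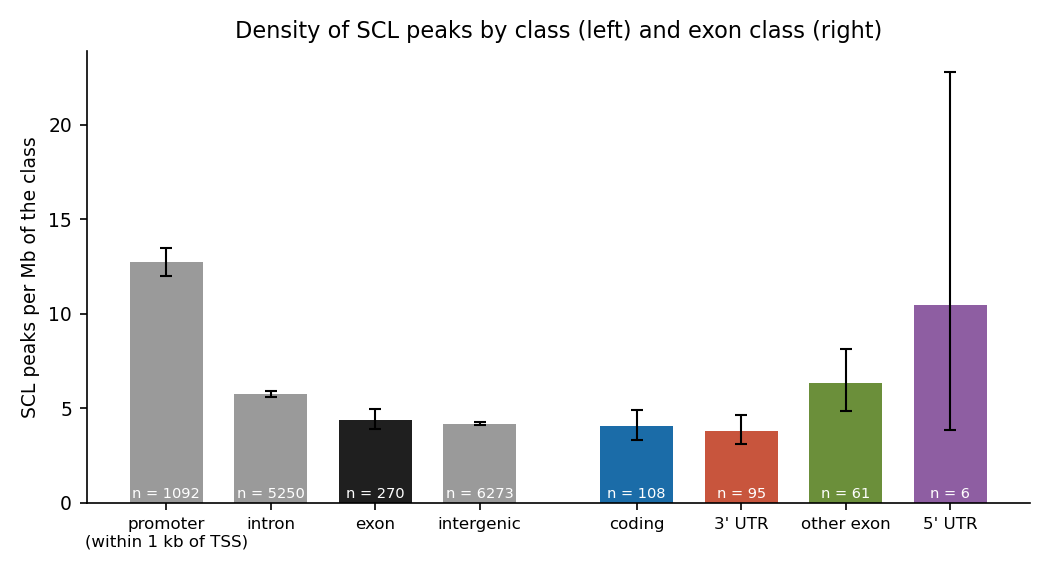
Peaks per Mb of each class, with Poisson 95% intervals as error bars and the number of peaks in each bar. Exons, at 4.39 peaks per Mb, lie below introns at 5.74 and promoters at 12.7, and other exons, at 6.35, have the highest density of the exon classes that hold more than 6 peaks.

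The exonic peaks lay on 20 chromosomes, from 26 on chromosome 2 and 24 on chromosome 4 to 2 on chromosome 14, with none on chromosome Y. In the transcript that gave the exon class, 166 of them lay in the last exon and 90 in an internal exon. A further 11 lay in the exon of a single-exon transcript and 3 in a first exon. The rule leaves out summits within 1 kb of a TSS, and the bases in each of these places were not counted, so no densities are given. Of the 95 peaks in 3′ UTRs, 85 were in a last exon, and of the 108 coding peaks 80 were in an internal exon. Of the 61 peaks in other exons, 54 were in a last exon, which ends that transcript and not always the coding transcript of the gene. The whole peak fell inside 1 exon for 144 of the 270 (53.3%). The median exon at a coding peak was 197 bp long, at a 3′ UTR peak 2405 bp and at an other-exon peak 1516 bp, while the median width of the exonic peaks was 388.5 bp. Only 17 of 108 coding peaks lay wholly in their exon, and the median coding peak had 55.1% of its bases in exons. The summit was within 25 bp of an exon's edge in 37 peaks.

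The 61 peaks in other exons came from several kinds of transcript. By transcript, 18 lay in lincRNAs, 15 in processed transcripts, 15 in retained introns, 11 in antisense transcripts and 2 in sense-intronic transcripts. In 24 of them the summit also lay in an intron of a coding transcript of the same gene, so that the same base is exonic in one transcript and intronic in another. Over all exon classes, 33 of the 270 summits also lay in an intron of another gene. Counting only coding and UTR exons left 209 peaks.

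The exonic peaks had a median fold of 10.5 (interval 9.32 to 11.7). The lower quartile was 7.43 and the upper 16.9, and the values ran from 2.42 to 183. The median over intron peaks was 11.4 (11.1 to 11.6), over intergenic peaks 11.2 (11.0 to 11.5), over promoter peaks 9.94 (9.61 to 10.6) and over all peaks 11.1 (11.0 to 11.4). The exonic interval overlapped each of these. A fold of at least 10 was reached by 143 of 270 exonic peaks (53.0%), against 56.6% of all peaks. Within exons the medians were 10.6 in coding sequence (9.32 to 11.8), 10.6 in 3′ UTRs (9.05 to 12.6), 9.44 in other exons (7.87 to 14.6) and 9.0 in 5′ UTRs (7.0 to 14.6). These intervals overlapped as well. The upper quartile was 22.0 in other exons, 17.9 in 3′ UTRs and 14.5 in coding sequence.

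**Figure D2:**
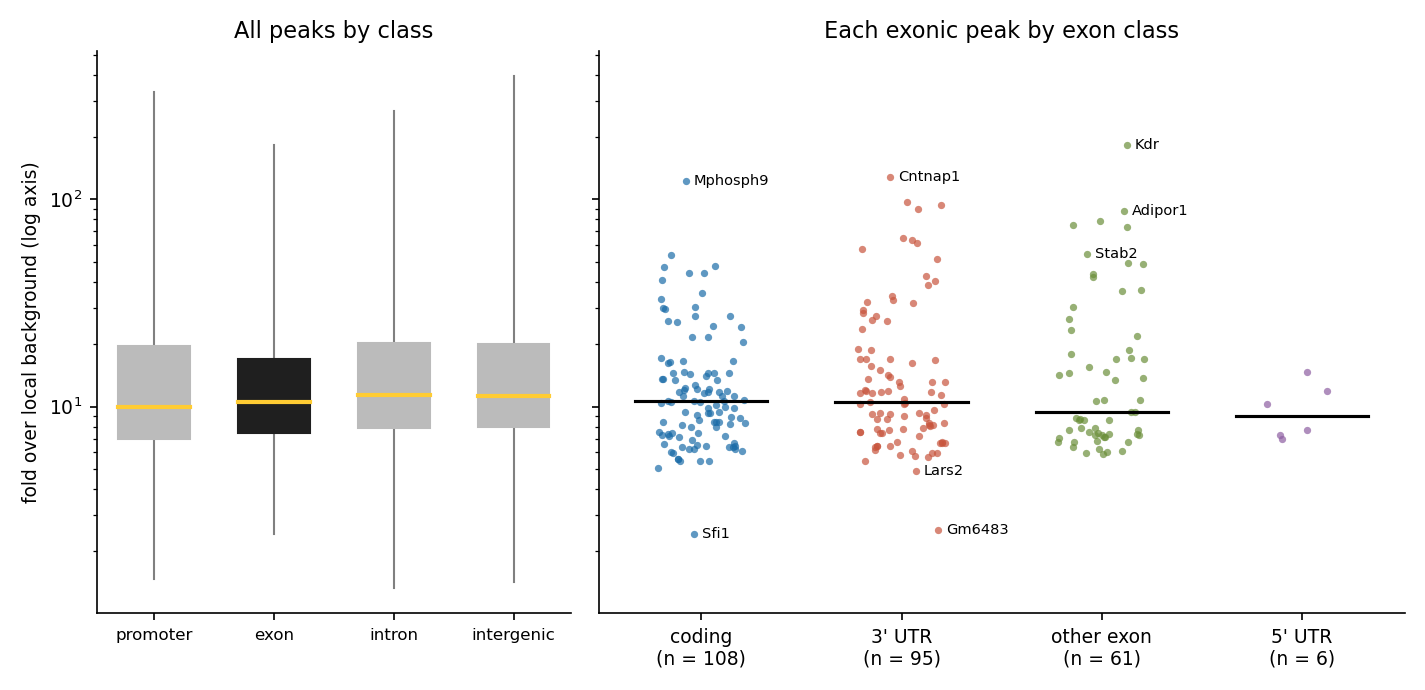
Fold over local background on a log axis, on the left by class (box, quartiles; yellow line, median; grey line, lowest to highest) and on the right as 1 point for each exonic peak, with a line at the median of its exon class. The exon box sits within the spread of the other classes, and Kdr, Cntnap1 and Mphosph9 are the 3 exonic peaks above a fold of 100.

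The depth behind these values was a median of 50 ChIP fragments at the summit, lower and upper quartiles of 33 and 96.5, and extremes of 24 and 1072. The median over all peaks was 53. The median local background of exonic peaks was 3.81 fragments, against 3.67 for all peaks, and 29 exonic peaks stood at the lowest background that the caller uses, 2.43 fragments. At or below the lower quartile of 33 fragments the interval of a single fold is wide, as in the peak in Robo1, with 25 fragments and a fold of 7.18 (4.75 to 10.5).

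**Figure D3:**
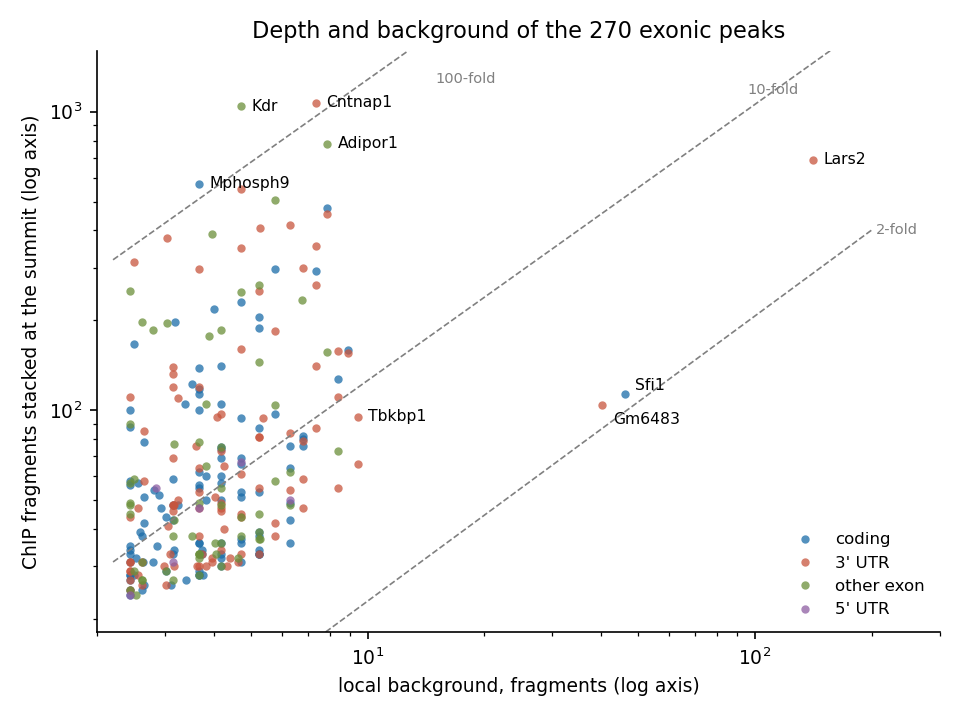
ChIP fragments at the summit against local background in fragments, both on log axes, for each of the 270 exonic peaks, with dashed lines of equal fold. Most points lie at backgrounds of 2.43 to 9.43 fragments, and Lars2, Gm6483 and Sfi1 stand apart at backgrounds of 141, 40.3 and 46.1.

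The peak with the highest fold among the 270 lay in Kdr, which encodes FLK1, the VEGF receptor on which the cells were selected. It spans chr5:76358176-76358882, 16050 bp from the nearest TSS, which is Kdr's own. It had 1044 fragments over a background of 4.72 and a fold of 183 (172 to 194). The summit lies in exon 10 of 10 of a retained-intron transcript, in sequence that is intronic in the coding transcript, and it is the only peak of the list within Kdr. It had a GATA motif but no E-box and no composite within 50 bp of the summit. The retained intron makes this peak exonic by the annotation, and it drops out where coding and UTR exons alone are counted.

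In 3′ UTRs, 4 peaks had a fold of 90 or more. Cntnap1, which encodes a contactin-associated protein of myelinated axons, had a peak at chr11:101050955-101051774 with 1072 fragments and a fold of 129 (121 to 137). The nearest TSS was 4390 bp away and belonged to the neighbouring gene Ezh1, a histone methyltransferase of Polycomb complex PRC2. Sufu, a negative regulator of Hedgehog signalling, had a peak at chr19:46529062-46530094 with a fold of 96.9 (89.0 to 105). Gm10300, a predicted single-exon gene, had a peak at chr4:131632701-131633697 with a fold of 94.1 (84.8 to 104), and the nearest TSS, 1613 bp away, was that of Epb4.1, which encodes the red cell membrane protein 4.1. Clec1a, a C-type lectin receptor, had a peak at chr6:129375877-129376221 with a fold of 90.1 (80.5 to 101). Further 3′ UTR peaks among the 25 highest were in Syngr1 (65.3), Samd7 (63.8), 6530418L21Rik (61.4), the prostaglandin E receptor gene Ptger1 (57.5), Tmem184a (51.5) and Traip (42.8). That made 10 of the 25 peaks in 3′ UTRs, and 7 of those 10 were shown above with their composite.

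In coding sequence 1 peak stood above the rest. Mphosph9, a gene for a centriolar phosphoprotein, had a peak at chr5:124716362-124717390 with 574 fragments and a fold of 123 (113 to 134). Its summit fell in exon 15 of 22, which is 135 bp long, while the peak is 1029 bp wide, so most of it lies in flanking introns. The next coding peak had a fold of 53.7 and lay in exon 4 of 4 of 3110062M04Rik. It was followed by Colec11 (47.8), a collectin gene, Clgn (47.3), a gene for a chaperone of the endoplasmic reticulum, Atf2 (43.9), a bZIP transcription factor gene, and 1810031K17Rik (43.9). The other coding peaks ran from 40.6 in Plekhg3 down to 5.08 in Grrp1, apart from Sfi1.

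Among other exons Kdr was followed by Adipor1, an adiponectin receptor gene, with 781 fragments in a retained intron and a fold of 88.3 (82.2 to 94.7). The peaks in Gm13032 (78.8), Ypel4 (74.8) and Ppp4r1l-ps (73.4) came next. Stab2, which encodes a hyaluronan receptor of sinusoidal endothelium, had a peak at chr10:86453350-86453801 with a fold of 54.7 (47.4 to 62.8). Its summit lies in exon 4 of 4 of a processed transcript, an exon of 37 bp, in sequence that is intronic in a coding transcript of Stab2. Like the Kdr peak, it drops out where coding and UTR exons alone are counted. Of the 9 other-exon peaks among the 25 highest, the remaining 3 were in the lincRNA Gm16767 (49.4), in Frmd4a (48.9) and in the antisense transcript 1700026D11Rik (43.7).

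The bases around the exonic summits held the motifs of the SCL complex at shares near those of intron and intergenic peaks, while promoter peaks had fewer E-boxes. The GATA motif was found within 50 bp of the summit in 187 of 270 exonic peaks (69.3%, Wilson interval 63.5 to 74.5), against 73.2% of all peaks and 62.9% of promoter peaks (60.0 to 65.7). An E-box (CANNTG) was found in 154 (57.0%, 51.1 to 62.8), against 52.6% of all peaks and 46.5% of promoter peaks (43.6 to 49.5), an interval that did not overlap the exonic one. Its palindromic form CAGCTG, which is also counted as an E-box, was found in 49 (18.1%, 14.0 to 23.2), against 14.1% of all peaks. The composite, CTG followed by GATA after 7 to 9 bp on one strand, was found in 105 (38.9%, 33.3 to 44.8), against 32.9% of all peaks. The composite share was 33.9% in intron peaks (32.6 to 35.2), 31.9% in intergenic peaks (30.8 to 33.1) and 32% in promoter peaks (29.3 to 34.8). The exonic share was the highest of these and its interval overlapped with those of introns and promoters, and the lower end of 33.3 lay just above the upper end for intergenic peaks. Neither a GATA motif, an E-box nor a composite was found in 8.52% of exonic peaks (5.74 to 12.46) and 19.3% of promoter peaks (17.1 to 21.8). All motifs were counted on both strands.

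Exon sequence as such held these motifs less often, and far less often for the GATA motif and the composite. In 572648 windows of 101 bp laid end to end over exons away from promoters, the GATA motif was found in 15.1%, an E-box in 43.0%, CAGCTG in 6.53% and the composite in 2.81%. In windows 1 kb to either side of the exonic summits, the shares were 16.9%, 37.8%, 6.48% and 1.48%. The composite was thus 13.8 times as frequent at exonic summits as in exons at large, the GATA motif 4.58 times and the E-box 1.33 times. The GC content at exonic summits was 53.5% at the median, and the mean over all exon windows was 46.6%, so the windows also differed in base composition, and its part in these ratios was not tested.

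**Figure D4:**
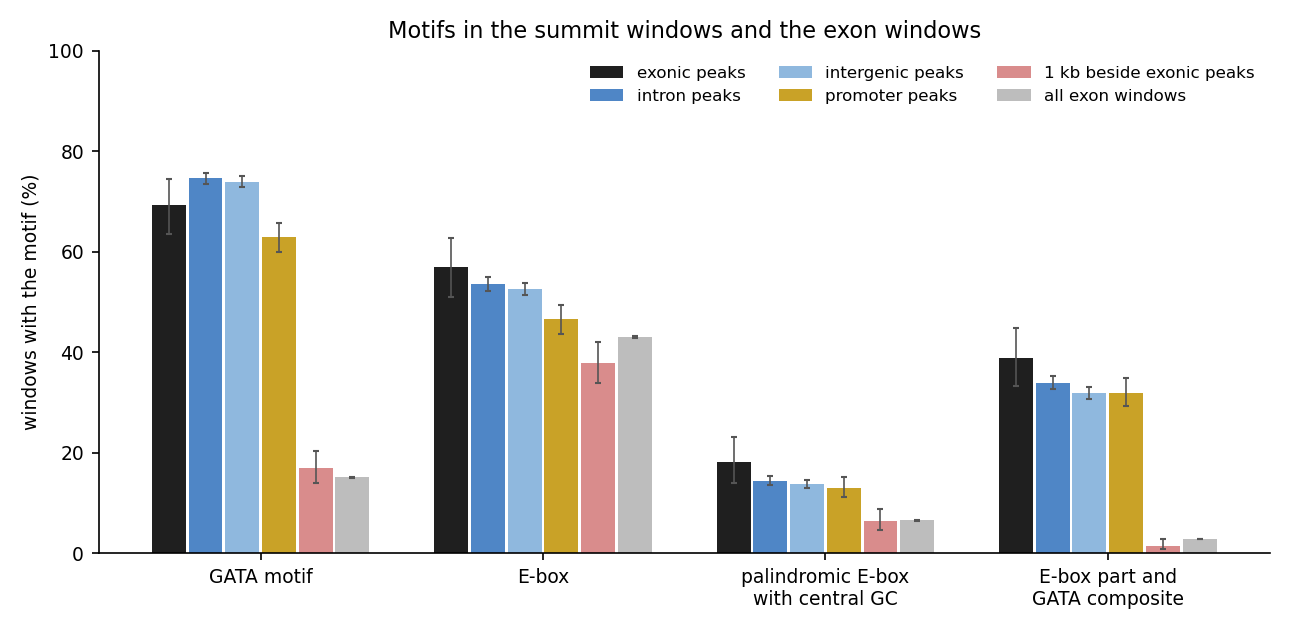
Share of 101 bp windows with each motif, in percent with Wilson 95% intervals, for the 4 classes of peaks, for windows 1 kb beside the exonic summits and for all exon windows; the palindromic E-box is CAGCTG and the E-box part of the composite is CTG. Exonic peaks, at 38.9% for the composite, stand near intron and intergenic peaks, and promoter peaks are lower for GATA and the E-box. The windows beside the summits and over all exons lie far below for GATA and the composite.

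The composite share lay between 33.3% and 40% in every exon class. It was found in 42 of 108 coding peaks (38.9%, 30.2 to 48.3), 38 of 95 peaks in 3′ UTRs (40%, 30.7 to 50.1), 23 of 61 in other exons (37.7%, 26.6 to 50.3) and 2 of 6 in 5′ UTRs. The GATA motif was found in 70.4% of coding peaks, 71.6% of peaks in 3′ UTRs and 65.6% of peaks in other exons. By distance to the nearest TSS, the composite share was 38.3% at 1 to 2 kb, 27.9% at 2 to 5 kb, 50% at 5 to 20 kb and 34.4% beyond 20 kb, with no steady order. Sorted by motif, the 105 exonic peaks with a composite had a median fold of 11.3 (9.32 to 13.5) and the 23 with neither a GATA motif nor an E-box 7.72 (6.36 to 10.6). The 52 with a GATA motif and a separate E-box had 11.3 (9.32 to 14.4), the 42 with a GATA motif alone 9.25 (8.15 to 12.2) and the 48 with an E-box alone 10.5 (7.87 to 12.1). All of these intervals overlapped. In introns the corresponding medians were 13.2 for composite peaks (12.6 to 13.9) and 9.12 for peaks with neither motif (8.57 to 9.45).

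The composites of exonic peaks were centred on the summit and had a preferred spacing. The composite nearest to the summit stood at a median distance of 14.5 bp, and in 68 of 105 peaks within 20 bp. In the nearest composite CTG and GATA were 9 bp apart in 64 peaks, 8 bp in 31 and 7 bp in 10. Over all spacings from 0 to 20 bp, the pair was found at 9 bp in 25.2% of exonic peaks (20.4 to 30.7) and at 8 bp in 11.9% (8.52 to 16.3). At 10 bp the share was 6.67% (4.26 to 10.3), and at every other spacing it was at most 5.56%. Intron peaks held the pair at 9 bp in 18.7% (17.7 to 19.8) and at 8 bp in 12.6% (11.8 to 13.6). The interval for 9 bp in exons lay above that in introns, and no test of this difference was run.

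**Figure D5:**
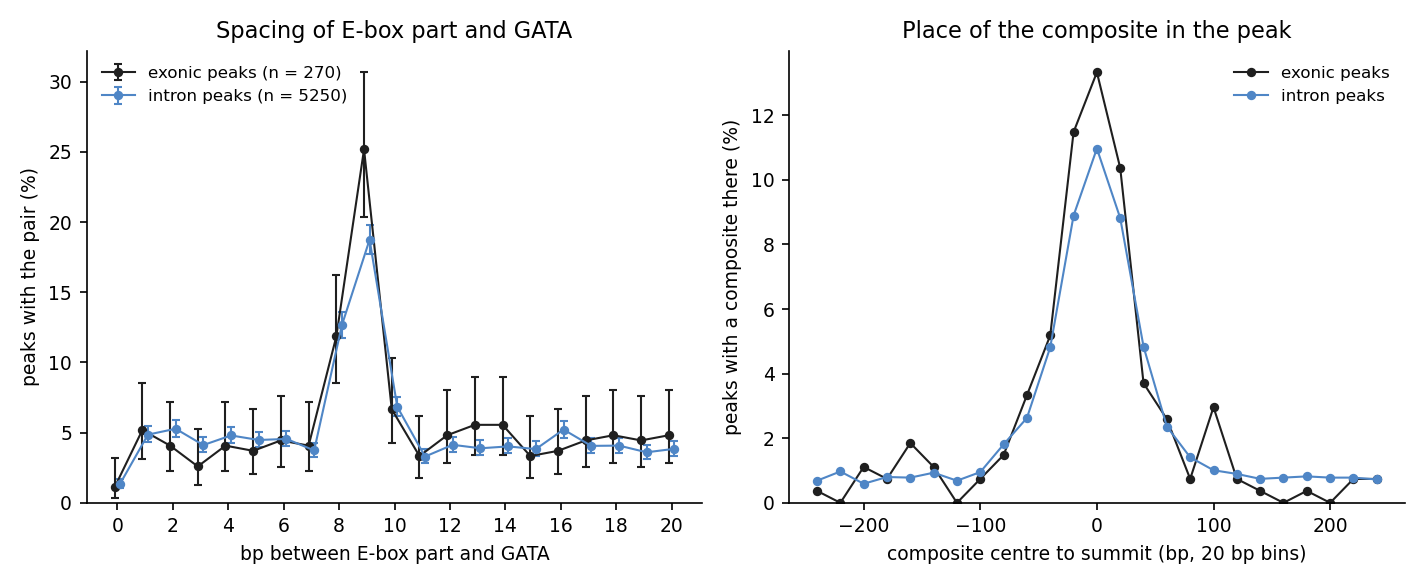
Left, share of peaks in which the CTG part of an E-box stands 0 to 20 bp before GATA within 50 bp of the summit, with Wilson 95% intervals; right, share of peaks with a composite centred in each 20 bp bin around the summit, for exonic and intron peaks. Both groups peak at a spacing of 9 bp, with 25.2% of exonic peaks, and at the summit itself.

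The choice of summits in exons places most of these composites in exons as well, and in 97 of 105 peaks every base of the composite was exonic. It read along the gene's strand in 47 and against it in 58. In 12 the CTG was the end of a full E-box. In coding sequence, 34 of 42 composites lay wholly in the exon, and for 33 of them the reading frame at GATA could be set. Of the 15 on the coding strand, GATA began at codon position 1 in 11, at position 2 in 0 and at position 3 in 4. At position 1, GAT is an aspartate codon, and at position 2 GATA followed by A or G would contain a stop codon. Over the coding sequences of 21734 genes, the same composite on the coding strand began GATA at position 1 in 55.4% of 5636 places, at position 2 in 13.3% and at position 3 in 31.3%. Of the 18 on the opposite strand, 4, 4 and 10 began at positions 1, 2 and 3, against 32.6%, 22.5% and 44.8% of 5689. No test of the frame was run on these 15 and 18 sites.

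The 270 peaks lay in 265 host genes, and 235 peaks were in protein-coding genes, 22 in processed-transcript genes and 13 in lincRNA genes. In 5 peaks the summit lay in exons of more than 1 gene. Of all 26225 genes counted, 1.01% had an exonic peak, and of the 3806 with any peak in their body 6.96% did. Another summit lay in the same gene for 103 of the 270 (38.1%), up to 14 others in Frmd4a, and the share among intron peaks is not given here. In 5 genes there were 2 exonic peaks each, and these pairs share a gene. Mc1r, the melanocortin receptor gene, had the highest pair, at chr8:125932922-125933733 and chr8:125933912-125934345 in its single exon, with folds of 31.5 (27.9 to 35.6) and 17.0 (14.4 to 20.1). The pairs in Cpxm2 (25.5 and 8.15), Selenbp2 (10.6 and 6.21), Krt80 (9.39 and 5.45) and Gm10396 (8.59 and 7.87) were lower, and in the last 3 of these genes the counting intervals of the pair overlapped.

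The gene with the exon was not always the gene with the nearest TSS. No matching share of intron peaks is given here, so this is not shown to be particular to exonic peaks. The nearest TSS belonged to the host gene in 174 peaks and to another gene in 96. Another gene was nearest for 34 of 108 coding peaks (31.5%), 44 of 95 peaks in 3′ UTRs (46.3%) and 15 of 61 in other exons (24.6%). The exonic peak in Nfix, an NFI-family transcription factor gene, at chr8:87223664-87224412 had a fold of 30.3 (26.6 to 34.4) and lay 1384 bp from the TSS of Lyl1, the closest relative of SCL. A promoter peak 216 bp from the Lyl1 TSS, at chr8:87224893-87225894, had a fold of 294 and 2757 fragments, against 234 at the Nfix exon. The peak in exon 18 of 19 of Plekhg3, with a fold of 40.6 (35.5 to 46.1), lay 7823 bp from the TSS of Spnb1, which encodes erythroid beta-spectrin. With the peaks near Ezh1 and Epb4.1 given above, these were the 4 of the 96 peaks whose nearest TSS was that of a gene in the pathway and cell type lists described next.

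The counts in the gene lists are given beside the 1.01% of all genes, and the 6.96% of genes with any peak in their body, that had an exonic peak. None of the 13 genes of the SCL complex and E proteins had one, though 8 had a peak somewhere in their body, and none of the 35 globin, heme and red cell genes did, though 19 had a peak in their body. Among 60 blood and endothelial transcription factor genes 1 had an exonic peak (1.67%), Nfix, and 35 had a peak in their body, of which Nfix is 2.86%. Among 50 genes for blood and endothelial receptors and surface proteins 3 did (6%, or 11.1% of the 27 with a peak in their body), which were Kdr, Stab2 and Aplnr. The summits in Kdr and Stab2 lie in other exons, and also in an intron of a coding transcript of the same gene. Of the 3, only Aplnr stays where coding and UTR exons alone are counted. Aplnr, the apelin receptor gene, had a weak peak in the 3′ UTR of its single exon with 30 fragments and a fold of 6.70 (4.59 to 9.48). None of 33 ribosomal, histone and other housekeeping genes had an exonic peak, and 1 had a peak in its body.

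In the lists for other lineages and pathways, 1 to 3 genes had an exonic peak. Their shares were above the 1.01% of all genes, but over genes with a peak in their body the share of the corepressor and Polycomb list was below 6.96% and those of the signalling and adhesion lists were close to it. Among 50 cardiac and paraxial mesoderm regulators 1 had an exonic peak (2%, or 16.7% of the 6 with a peak in their body), Pax7, a regulator of muscle progenitors, whose coding peak in exon 2 of 9 had 31 fragments and a fold of 5.60 (3.86 to 7.87). A stronger peak, with a fold of 32.2, lay in an intron of the same gene. Among 52 corepressor and Polycomb genes 1 had an exonic peak (1.92%, or 5.26% of the 19 with a peak in their body), Auts2, a component of some PRC1 complexes, which had a fold of 10.7 (7.98 to 14.1) in a retained intron and 12 peaks in its body in all. Among 81 genes of mesoderm signalling pathways 3 had an exonic peak (3.70%, or 7.69% of the 39 with a peak in their body). These were the ephrin receptor gene Ephb2 in its 3′ UTR (27.4, 23.6 to 31.6), the Wnt receptor gene Fzd5 in its 3′ UTR (18.8, 15.3 to 23.0) and the Slit receptor gene Robo1 in coding exon 3 of 29 (7.18). Among 46 adhesion and matrix genes 2 did (4.35%, or 8% of the 25 with a peak in their body), among them the laminin gene Lamb1 at 6.72 (4.99 to 8.87) in a retained intron. No count of a list here was tested against the share of all genes.

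The study names genes whose expression SCL raises (activated) or lowers (repressed), and these were looked up by name. Those lists were drawn up with these same ChIP libraries, so their counts are not independent evidence. Of the 270 peaks, 15 lay in exons of activated genes (5.56%) and 7 in exons of repressed genes (2.59%). By gene, an exonic peak was present in 2.91% of activated genes and in 2.66% of repressed genes, against 1.01% of all genes. Among genes with any peak in their body the order was the opposite, with 3.94% of activated, 5.6% of repressed and 6.96% of all such genes. The activated hosts ran from Cntnap1 (129), Syngr1 (65.3), H2-T23 (36.0), Gria2 (29.4), Fads3 (21.6) and Fzd5 (18.8) through St8sia1 (14.9), the lincRNA Malat1 (13.7), Herc1 (10.6) and Amigo2 (10.4) to Srgap3 (8.18), 2700046A07Rik (7.78), Fam113b (7.72), Dmgdh (7.49) and Aplnr (6.70). The repressed hosts included the potassium channel gene Kcnc2 (14.4), 1500016L03Rik (8.64), Robo1 (7.18), Zfp385b (6.41), the receptor gene Gfra3 (6.36) and Grrp1 (5.08). The median fold was 13.7 over the 15 peaks and 7.18 over the 7, against 10.5 over all 270. The composite was found in 5 of the 15 and in 5 of the 7, against 38.9% of all exonic peaks. Both sets are small, and no difference between them was tested. By nearest TSS instead of host, 19 exonic peaks were assigned to activated genes (7.04%, 4.55 to 10.7), against 11.1% of all peaks, 13.9% of promoter peaks and 13.4% of intron peaks. For repressed genes the share was 2.59% (1.26 to 5.25), against 3.73% of all peaks.

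A few members were weak or lay at the edge of the rule. In 3 exonic peaks the local background exceeded 36.7 fragments, 10 times the median of all peaks. The peak in the 3′ UTR of Lars2, the mitochondrial leucyl-tRNA synthetase gene, had 691 fragments over a background of 141 and a fold of 4.87 (4.52 to 5.25). Those in Gm6483 and in the coding exon 19 of 33 of Sfi1 had folds of 2.54 and 2.42 over backgrounds of 40.3 and 46.1, the lowest folds of the 270. The highest background after these was 9.43 fragments, in Tbkbp1 and Ccdc97. Just inside the limit of 1 kb from a TSS were Syngr1 at 1064 bp with a fold of 65.3, Gm17708 at 1111 bp with 7.73 and Gp5 at 1124 bp with 6.65. Just outside it were exonic summits in Tlr12 at 984 bp with 8.74, in Tmem88 at 952 bp with 13 and in Gm16601 at 928 bp with 6.76.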

How the data were processed

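The 2 SCL ChIP and 2 input libraries were sequenced as paired ends. Per the labels and the study's methods, the authors aligned reads to mm9 with Bowtie 1.1.2, removed duplicates and called peaks with MACS2 2.0.10. Replicates were merged and the final list was set with the irreproducible discovery rate (IDR), which keeps peaks that rank alike in both replicates. The deposited list is thus 1 pooled call already selected for agreement between replicates. Its 12885 peaks are more than the SCL-bound loci that the paper reports. The deposited fold (a ratio of ChIP to local background, with 1 added to both) and the deposited −log10 p and −log10 q are the authors' values. Library depth is not given in the sources used here. Fragments at the summit and local background were solved from the fold and the −log10 p, by the MACS2 formulas, and matched the latter within 0.001 for 99.9% of peaks.

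Classes came from GENCODE vM1 on NCBIM37, the same build as mm9, with coding bases ranked before 5′ UTR, 3′ UTR and other exons. Coordinates count from 1. Promoter took precedence over exon, and exon over intron. Intervals are exact Poisson for densities and fragments, Wilson for shares and order statistics for medians. Gene names absent from the annotation were matched through other symbols. Genes named are the 25 exonic peaks of highest fold, those in listed genes, genes with 2 or more exonic peaks, the 5 peaks with the highest background and those nearest the 1 kb limit, and any others were chosen after their values were seen. A few of these are not reported here. The exonic peaks and the gene lists were chosen with earlier results of these data known. Python 3.11.15 with numpy 2.4.6 and scipy 1.17.1 was used, and the scripts were tested on simulated data. Alternatives were the fold and −log10 q thresholds, the TSS distance, the genes and exons counted and the motif window.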

Additional observations from a re-analysis of the deposited data

How the results depend on the processing

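No paired analysis was possible because the 1 deposited list was called on merged libraries and holds no value of a single library. For the same reason no library was left out in turn. Of 77 alternatives over 12 results, 58 left the value within its interval, or for a count within a factor of 1.5, and 19 moved it further. The direction of some moves was fixed in advance. A fold or −log10 q threshold can only lower a count, a fold threshold can only raise the median fold, and a wider window can only raise a motif share. Leaving out high-background peaks kept 267 of the 270, so it could hardly move a value. At a fold of at least 10, 143 exonic peaks in 142 genes remained, with a median fold of 16.6 and a median width of 436 bp. Of these, 2 lay in exons of repressed genes, and 29.4% shared a gene with another summit. At a −log10 q of at least 50 there were 101 peaks in 100 genes, with a median fold of 25.5, a median width of 452 bp and the GATA motif in 75.2%. Of these 101, 9 lay in activated and 1 in repressed genes, and 27.7% shared a gene with another summit. Taking any base of a peak in an exon gave 506 peaks. With the window widened to 100 bp either way, the composite was found in 45.6% of exonic peaks, CAGCTG in 28.5%, the E-box in 75.9% and the GATA motif in 84.4%. In alternatives added after the data were seen, coding and UTR exons alone gave 209 peaks with a median fold of 10.6 and a composite in 39.2%, and composites wholly inside an exon were found in 35.9% of the 270. The lowest depth at a summit was 24 fragments, which limits the precision of a single fold.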
